A study of Mus musculus with 8 samples.

Results

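The 10 genes described here drive or mark the segmentation of paraxial mesoderm into somites: *Hes7*, *Lfng*, *Dll1*, *Dll3*, *Mesp2*, *Tbx6*, *Msgn1*, *Ripply2*, *Meox1* and *Uncx*. They are 10 of 20660 genes with a RefSeq symbol on the array. Every non-control probe whose RefSeq accession belongs to 1 of them was taken, which gave 12 of the 55681 distinct probes on the array, with 2 probes each for *Dll3* and *Tbx6*. RNA of 8 whole mouse embryos, taken 8.5 days after mating, was hybridised to 1 Agilent one-colour array for each embryo. All 8 embryos, on a C57bl6/129 background, were heterozygous for Eedl7Rn5-1989SB, here written *Eed* hypo/wt, and had wild type mothers. This chemically induced hypomorphic point mutation lowers the function of EED, a core protein of the histone methyltransferase complex PRC2. The fathers of 4 embryos were homozygous for it (*Eed* hypo/hypo, HOM father) and those of the other 4 were heterozygous (*Eed* hypo/wt, HET father), so that the father's genotype and not the embryo's separated the groups. Each group held 2 females and 2 males. By the study's methods, the embryos were matched for stage and size from photographs, and the sires were fewer than the embryos, so some embryos within a group share a father. The paper describes the HOM and HET sires as littermate brothers, and the labels do not say which sire each embryo had. The probes of the segmentation genes were chosen as a possible index of stage and are described here embryo by embryo and between the father groups. The labels give the day but no somite count or finer stage for each embryo, so a link of these values to stage was not tested.

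New somites bud in pairs from the anterior end of the presomitic mesoderm, at a pace set by an oscillator in which Notch targets such as *Hes7* and *Lfng* switch on and off in waves. T-box and basic helix-loop-helix factors such as *Tbx6* and *Msgn1* hold cells in the presomitic state, *Mesp2* and *Ripply2* place the next boundary, and *Meox1* and *Uncx* mark somites once they have formed. Because a single embryo is caught at 1 phase of the cycle, transcripts of the oscillator can differ between embryos of the same age.

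Levels are given as normalised log2 signal, where 0 is the 75th percentile of the array and a difference of 1 is a 2-fold difference. A probe's level can be compared between embryos but not with the level of another probe. In whole embryos, fewer cells of a type and less RNA per cell cannot be told apart. Across the arrays, 51.9% to 60.8% of spots were well above background. Of the 12 probes, only that of *Mesp2* missed the scanner's call of well above background on any array, namely on 2 of 4 HOM father arrays. All 12 probes passed the filter on dim probes, as did 53.4% of all probes, and no spot of a segmentation gene was saturated or carried an outlier flag. The *Eed* transcript itself was at 4.72 ± 0.06 (SD, n = 4) in HOM father embryos and 4.71 ± 0.05 (SD, n = 4) in HET father embryos, a probe level that does not report the point mutation. The 4 arrays of each father group lay on a slide of their own, so slide and father cannot be told apart in any comparison of the groups.

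Sequences upstream of the start sites are shown for the 5 genes with a probe called between the father groups, followed by *Mesp2*, whose signal varied most between embryos, and *Lfng*, which holds the most matches to the Notch effector's core sequence. They are the 150 bases before the start site of each gene's RefSeq promoter entry on build GRCm38.p6, on the strand of the gene. The annotated spans of *Hes7* and *Uncx* begin further upstream, at 69118906 and 139543865. The window shown thus lies wholly inside the span of *Hes7* and partly inside that of *Uncx*. Capitals mark letters of any of 4 motifs on either strand: the RBPJ core TGGGAA, the E-box CANNTG, the N-box CACNAG and the T-box site GGTGTGA.
*Hes7*, chr11:69120303-69120452, plus strand: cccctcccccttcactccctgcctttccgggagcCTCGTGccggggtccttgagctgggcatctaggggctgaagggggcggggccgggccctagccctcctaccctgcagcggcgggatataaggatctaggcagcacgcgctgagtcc
*Dll3*, chr7:28301786-28301935, minus strand: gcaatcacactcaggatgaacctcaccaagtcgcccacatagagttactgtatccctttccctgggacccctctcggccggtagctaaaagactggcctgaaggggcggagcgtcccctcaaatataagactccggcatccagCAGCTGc
*Tbx6*, chr7:126781333-126781482, plus strand: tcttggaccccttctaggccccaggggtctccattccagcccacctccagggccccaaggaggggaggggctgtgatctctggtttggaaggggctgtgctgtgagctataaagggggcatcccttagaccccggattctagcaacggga
*Msgn1*, chr12:11208949-11209098, minus strand: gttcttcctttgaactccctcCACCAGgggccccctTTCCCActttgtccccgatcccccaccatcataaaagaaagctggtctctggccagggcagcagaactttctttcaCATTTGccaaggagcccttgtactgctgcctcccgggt
*Uncx*, chr5:139543748-139543897, plus strand: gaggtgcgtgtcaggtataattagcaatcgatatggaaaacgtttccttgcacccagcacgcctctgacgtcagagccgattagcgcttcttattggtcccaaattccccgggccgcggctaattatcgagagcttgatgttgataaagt
*Mesp2*, chr7:79810577-79810726, plus strand: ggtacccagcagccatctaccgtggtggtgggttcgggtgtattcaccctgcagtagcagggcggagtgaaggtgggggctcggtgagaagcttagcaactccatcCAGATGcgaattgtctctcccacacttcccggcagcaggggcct
*Lfng*, chr5:140607191-140607340, plus strand: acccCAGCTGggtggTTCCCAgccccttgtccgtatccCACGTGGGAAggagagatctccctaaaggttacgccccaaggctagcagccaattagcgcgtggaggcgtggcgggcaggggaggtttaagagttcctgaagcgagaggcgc
In the *Hes7* window the capitals are an N-box, the kind of site that Hes repressors are known to bind. The *Msgn1* window holds an N-box, an RBPJ core and an E-box in that order, and the *Lfng* window holds 2 RBPJ cores, 1 of which overlaps an E-box. No letters of the 4 motifs stand in the windows shown for *Tbx6* and *Uncx*, and a single E-box stands in those of *Dll3* and *Mesp2*. In the longer RefSeq promoter window, which reaches further upstream and past the start, *Hes7* also held an RBPJ core at -180 from the start, *Tbx6* held 3 N-boxes, *Uncx* held an E-box at 25 after the start, and *Ripply2* held a T-box site at -127. Over 32851 mouse promoters of that length, 25.6% held an RBPJ core, 72.3% an E-box, 42.5% an N-box and 3.98% a T-box site. Such matches describe the letters and not the use of a site. *Dll1* had 2 promoter entries, and 9 of the 10 genes had an entry. *Meox1* had none.

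Between the father groups, some genes of the presomitic mesoderm were lower, and 1 gene of the formed somite was higher, in embryos of HOM fathers. *Hes7*, *Msgn1*, 1 of 2 *Tbx6* probes and 1 of 2 *Dll3* probes fell, by 0.32 to 0.44 on the log2 scale, and *Uncx* rose by 0.63. These 5 of 12 probes passed an adjusted p of 0.05, against 21.0% of the 29718 probes tested. The 4 lower probes compare with 8.69% of all tested probes called lower, and the 1 higher probe with 12.3% called higher. The same 5 probes were also those whose 4 HOM father embryos did not overlap the 4 HET father embryos, against 27.1% of all tested probes (13.0% lower and 14.1% higher). By sign, 9 of the 12 probes were lower and 3 were higher in HOM father embryos, and their median difference was -0.18, beside -0.02 over all tested probes. A lean to lower values was not particular to these genes. By brightest probe, 7 of 10 segmentation genes, 6 of 8 heart and 7 of 8 yolk sac endoderm markers were lower. Their medians were -0.17, -0.16 and -0.14, and those of all marker lists ran from -0.31 (erythroid) to 0.12 (trophoblast and decidua). None of the 12 reached the stricter call of an adjusted p below 0.01 and 2-fold by limma, which 1.27% of all tested probes reached, while 7 of 12 had an unadjusted p below 0.05, against 34.8% of all tested probes. The number of segmentation probes called fell to 3 when HOM father replicate 3 or HET father replicate 2, 3 or 4 was left out, and rose to 9 when arrays were scaled to their median, a scaling that moved the median of all probes from -0.02 to -0.21 and the share called to 42.7%.

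**Figure D1:**
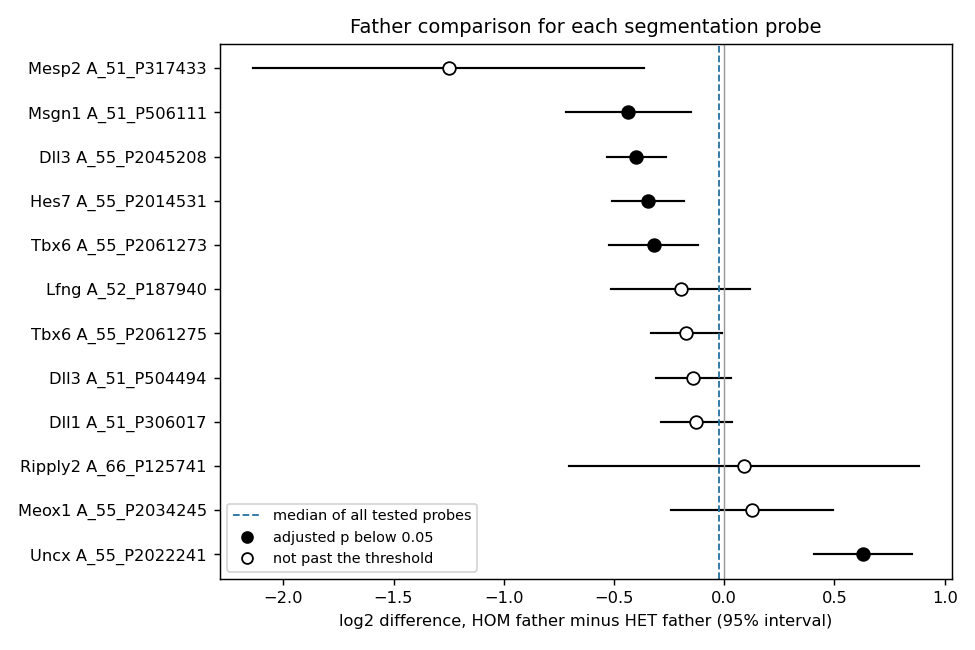
Log2 difference of each of the 12 segmentation probes, HOM father minus HET father (x axis), with its 95% interval from limma, in order of size. Filled points are the 5 probes past an adjusted p of 0.05, of which 4 lie below 0 and *Uncx* lies at 0.63. The dashed line is the median of all tested probes, -0.02.

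Of the oscillator genes, *Hes7*, the transcriptional repressor whose delayed feedback on itself runs the mouse segmentation clock, differed with the father. Its signal in the 4 HOM father embryos was 1.74, 1.70, 1.63 and 1.59 in replicates 1 to 4. In the 4 HET father embryos it was 1.88, 2.02, 1.98 and 2.16. Every HOM father embryo was below every HET father embryo, and the SD was 0.07 within the HOM father group and 0.12 within the HET father group. The difference was -0.35 ± 0.07 (SE), a 1.27-fold lower level, with an adjusted p of 0.0124 by limma. The call was lost in 3 of 20 alternative settings, with adjusted p up to 0.0741 when HOM father replicates 2 and 3 were left out together.

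*Lfng*, the glycosyltransferase that modifies Notch and cycles with *Hes7*, did not separate the groups. Its signal was -1.18, -1.74, -1.16 and -1.31 in HOM father embryos. It was -1.19, -1.29, -1.10 and -1.02 in HET father embryos. HOM father replicate 2 was the lowest of the 8 embryos and the other 7 lay close together, with both groups interleaved. The difference was -0.20, with a 95% interval from -0.51 to 0.12 and an adjusted p of 0.342, and it was -0.07 without HOM father replicate 2.

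**Figure D2:**
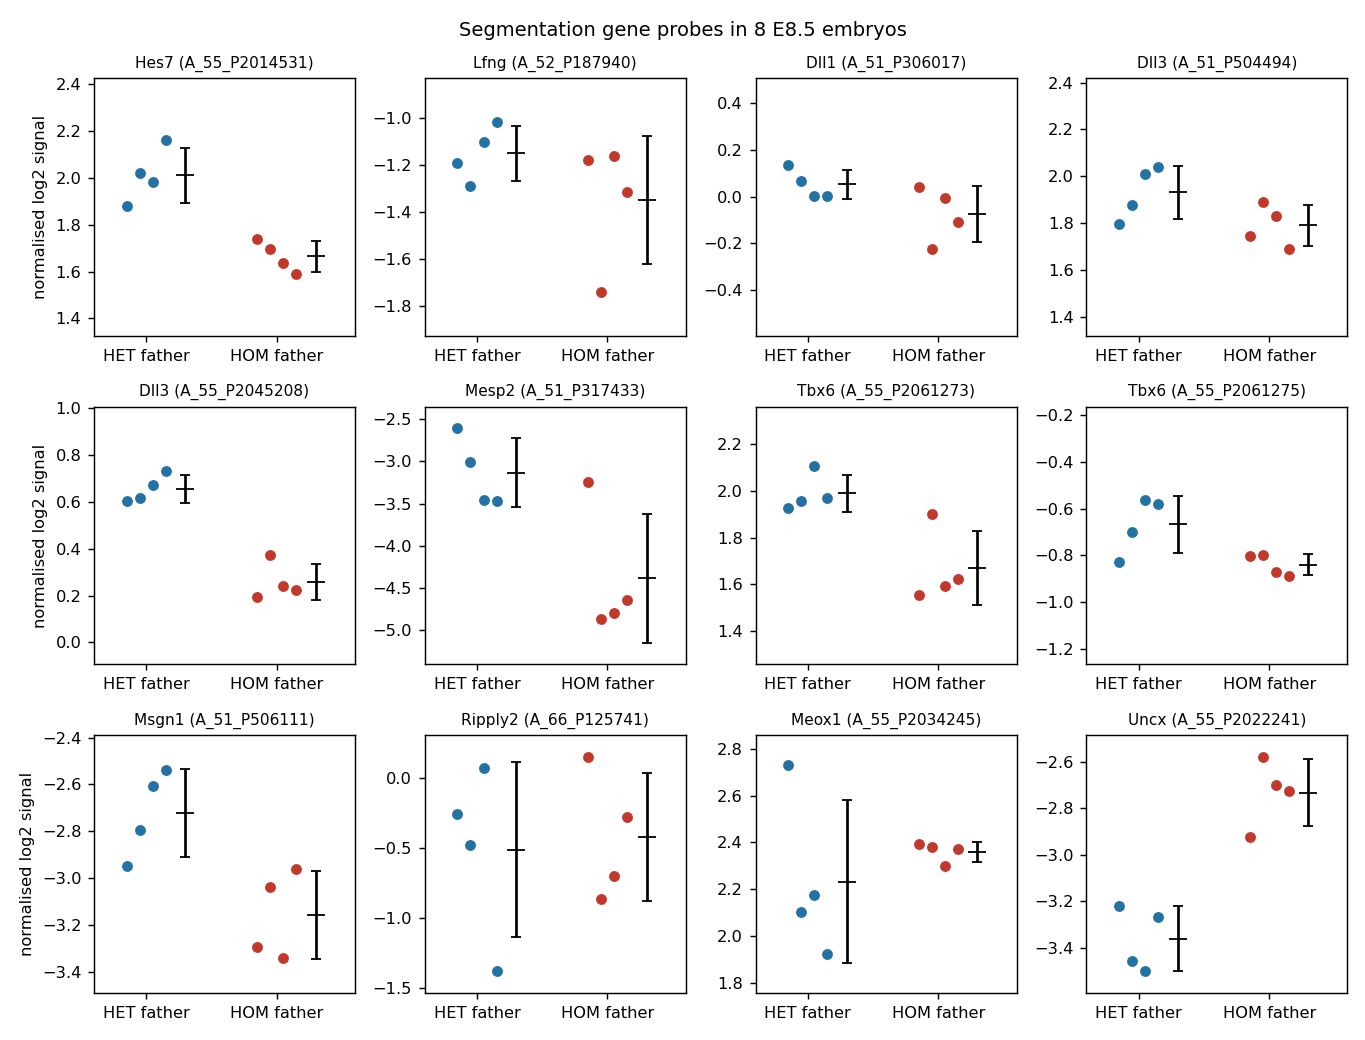
Normalised log2 signal (y axis) of each of the 12 segmentation probes in the 4 HET father embryos (blue) and the 4 HOM father embryos (red), in order of replicate from left to right, with the group mean and SD in black beside the points. Panels have their own y ranges. The groups do not overlap for *Hes7*, *Dll3* A_55_P2045208, *Tbx6* A_55_P2061273, *Msgn1* and *Uncx*, and the widest scatter is that of *Mesp2*.

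The Delta proteins of the presomitic mesoderm were measured by 3 probes. *Dll1*, the ligand that activates Notch in neighbouring presomitic cells, was printed in 10 spots on every array, the other 11 probes having 1 spot each, with an SD between spots of 0.04 to 0.10 on an array. Its signal was 0.04, -0.22, -0.0044 and -0.11 in HOM father embryos. It was 0.13, 0.07, 0.0048 and 0.0042 in HET father embryos. The groups overlapped, with HOM father replicate 2 again the lowest embryo. The difference was -0.13, with an interval from -0.29 to 0.03 and an adjusted p of 0.239.

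*Dll3* encodes a divergent Delta protein that does not activate Notch in neighbouring cells and whose loss disorders the vertebral column. Its probe A_55_P2045208 read 0.19, 0.37, 0.24 and 0.22 in HOM father embryos. In HET father embryos the same probe read 0.60, 0.62, 0.67 and 0.73. The groups were apart by more than the range of either, and the difference of -0.40 ± 0.06 (SE), a 1.32-fold lower level, had an adjusted p of 0.00296. This call was kept under all 19 alternative settings in which the probe could be fitted.

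The second *Dll3* probe, A_51_P504494, gave a smaller difference. It read 1.75, 1.89, 1.83 and 1.69 in HOM father embryos. It read 1.80, 1.88, 2.01 and 2.04 in HET father embryos. HOM father replicates 2 and 3 lay above HET father replicate 1, so the groups overlapped, and the difference of -0.14 had an interval from -0.31 to 0.03 and an adjusted p of 0.218. The 2 probes of *Dll3* thus had the same sign but not the same size, and the average of both gave -0.27 with an adjusted p of 0.0219.

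*Tbx6* is the T-box factor that commits progenitors to paraxial mesoderm and that switches on *Mesp2*. Probe A_55_P2061273 read 1.55, 1.90, 1.59 and 1.62 in HOM father embryos. It read 1.92, 1.96, 2.11 and 1.97 in HET father embryos. HOM father replicate 2 lay just below the HET father range and the other HOM father embryos lay further down. The difference was -0.32 ± 0.09 (SE), with an adjusted p of 0.0359. The call was lost in 10 of 20 alternative settings, 7 of which left out a single embryo (any but HOM father replicate 2), with adjusted p between 0.0517 and 0.120. The second *Tbx6* probe, A_55_P2061275, read -0.80, -0.80, -0.87 and -0.89 in HOM father embryos. It read -0.83, -0.70, -0.56 and -0.58 in HET father embryos. HET father replicate 1 sat among the HOM father embryos, and the difference of -0.17 had an adjusted p of 0.120. Without HET father replicate 1 the difference was -0.22 with an adjusted p of 0.0423.

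*Msgn1*, a basic helix-loop-helix factor of the posterior presomitic mesoderm that promotes the exit of progenitors from the tailbud, was also lower. Its signal was -3.30, -3.04, -3.34 and -2.96 in HOM father embryos. It was -2.95, -2.80, -2.60 and -2.54 in HET father embryos. The closest embryos of the groups, HOM father replicate 4 and HET father replicate 1, were all but level. The difference was -0.44 ± 0.12 (SE), with an adjusted p of 0.0407. The call was lost in 11 of 20 alternative settings, including each that left out HOM father replicate 1 or 3 or HET father replicate 2, 3 or 4, where adjusted p lay between 0.0705 and 0.101.

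The genes that place the next boundary varied most between embryos. *Mesp2*, the factor that fixes the position of the coming boundary and the anterior identity of the new somite, had an SD of 0.88 over the 8 embryos, larger than that of 97.2% of all tested probes. The probe was dim, at the 14.6th percentile of tested probes in mean signal, so this SD includes signal near background. Its signal was -3.25, -4.87, -4.79 and -4.64 in HOM father embryos. It was -2.61, -3.01, -3.45 and -3.47 in HET father embryos. HOM father replicate 1 stood with the HET father embryos and the other 3 HOM father embryos stood far below them, of which only replicate 4 was well above background. The difference was -1.25 ± 0.38 (SE), with an interval from -2.14 to -0.36 and an adjusted p of 0.0544, and so it did not pass the threshold. The probe met the filter on dim probes through the HET father arrays alone, so the size of the difference is set against signal near background and the fits below are no support for it. It was past the threshold in 5 of 19 alternative settings, among them the fit without HOM father replicate 1 (-1.63, adjusted p = 0.00514), while background correction by normexp gave -0.75 with an adjusted p of 0.0506 and leaving out HOM father replicates 2 and 3 gave -0.81 with an adjusted p of 0.276.

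*Ripply2*, the co-repressor that shuts off *Tbx6* protein and *Mesp2* as a boundary forms, had an SD of 0.51 over the embryos, above that of 90.7% of tested probes. Its signal was 0.15, -0.87, -0.70 and -0.27 in HOM father embryos. It was -0.26, -0.48, 0.08 and -1.38 in HET father embryos. High and low embryos occurred in both groups, and the highest and the lowest embryo came from different fathers' groups. The difference was 0.09, with an interval from -0.70 to 0.88 and an adjusted p of 0.883, and its sign turned with the scaling to the median (-0.10) and without HOM father replicate 1 (-0.10) or HET father replicate 4 (-0.20). HOM father replicate 1 was the highest of its group for both boundary genes, whereas HET father replicate 3 was high for *Ripply2* and near the lower end of its group for *Mesp2*.

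Of the genes of the formed somite, *Uncx*, a homeobox gene of the posterior compartment of each somite that is needed for the pedicles and proximal ribs, was higher in HOM father embryos. Its signal was -2.93, -2.58, -2.70 and -2.73 in those embryos. It was -3.22, -3.46, -3.50 and -3.27 in HET father embryos. All HOM father embryos were above all HET father embryos. The difference was 0.63 ± 0.10 (SE), a 1.55-fold higher level, with an adjusted p of 0.00377. This call was kept in all 20 alternative settings, in which the difference ranged from 0.36, with normexp background correction, to 0.69. The *Uncx* probe was dim, at the 23.6th percentile of tested probes in mean signal. Without the filter on dim probes, 85.9% of all calls were higher, beside 58.6% with it. Both counts fell without the filter, higher calls from 3660 to 2671 and lower calls from 2583 to 439. The 2 shares therefore do not show in which direction dim probes lean.

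*Meox1*, a homeobox gene expressed throughout young somites, did not differ in its mean beyond the spread between embryos. Its signal was 2.39, 2.38, 2.30 and 2.37 in HOM father embryos. It was 2.73, 2.10, 2.18 and 1.92 in HET father embryos. The SD was 0.04 among HOM father embryos and 0.35 among HET father embryos, and HET father replicate 1 was the highest of all 8. Without that embryo the SD of the HET father group was 0.13. The difference of 0.13 had an interval from -0.24 to 0.50 and an adjusted p of 0.610. It was 0.29 with an adjusted p of 0.0369 without HET father replicate 1, and -0.06 under scaling to the median.

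The genes were next read embryo by embryo, by averaging the deviation of each gene's brighter probe from its mean over the 8 embryos. Over all 10 genes, this index was 0.06, -0.18, -0.17 and -0.11 in the HOM father embryos. It was 0.19, 0.06, 0.13 and 0.0074 in the HET father embryos. HOM father replicate 1 lay within the HET father range and the other 3 HOM father embryos lay below it. The mean difference was -0.20 on the log2 scale, and it is given without a test because the genes were chosen. By gene, the differences ran from -1.25 for *Mesp2* to 0.63 for *Uncx*. *Mesp2*, near background on some HOM father arrays, thus weighs most in this index, and the order of the embryos rests partly on that probe. Split by place of expression, the 6 presomitic genes gave -0.12, -0.14, -0.13 and -0.13 in HOM father embryos. They gave 0.04, 0.09, 0.18 and 0.22 in HET father embryos. The HOM father embryos were close to each other and below every HET father embryo for this average. The 2 boundary genes gave 0.57, -0.75, -0.63 and -0.34 in HOM father embryos. They gave 0.68, 0.37, 0.42 and -0.31 in HET father embryos, so 1 embryo of each group stood apart from its own group. The 2 genes of the formed somite gave 0.11, 0.28, 0.17 and 0.20 in HOM father embryos. They gave 0.13, -0.30, -0.29 and -0.30 in HET father embryos, of which only replicate 1 lay within the range of the HOM father group.

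**Figure D3:**
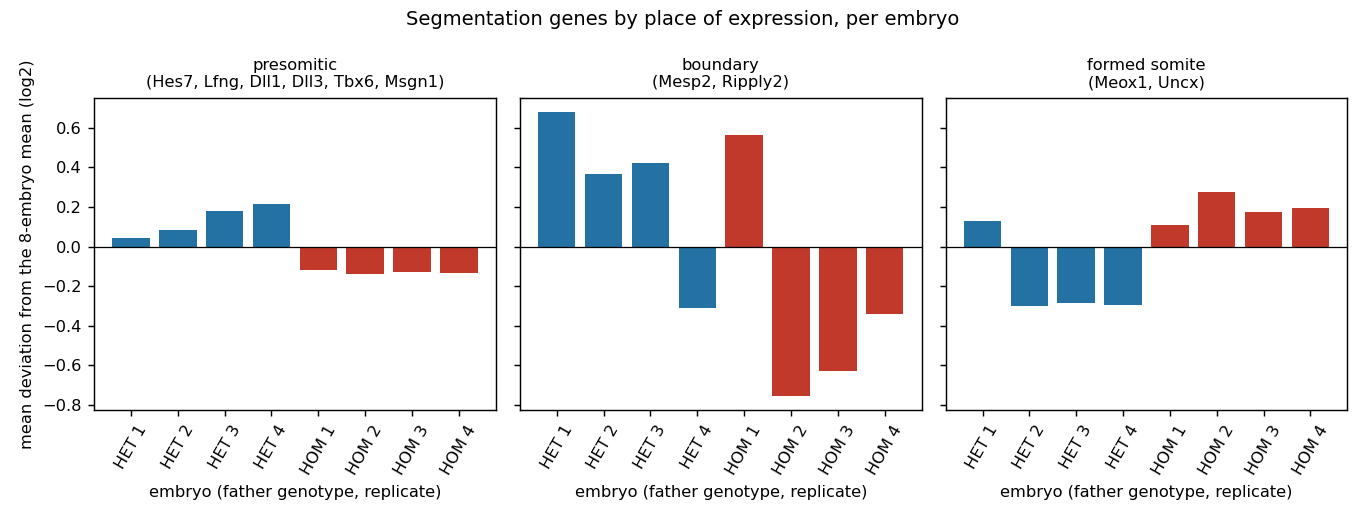
Mean deviation from the 8-embryo mean (y axis, log2) of the presomitic, boundary and formed somite genes in each embryo (x axis, by father and replicate; blue, HET father; red, HOM father). The presomitic genes are below 0 in all 4 HOM father embryos, the boundary genes range from -0.75 to 0.68, and the formed somite genes are above 0 in all 4 HOM father embryos and in HET father replicate 1.

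No single embryo was first or last throughout. HET father replicate 4 was the highest embryo for 4 of the 10 genes and the lowest for 2. HET father replicate 1 was the highest for 3 and the lowest for none. HOM father replicate 2 was the lowest for 3 genes and the highest for 1. HET father replicate 3 was among the 4 highest embryos for 8 genes, and HOM father replicate 3 for 2.

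Female and male embryos were compared with the father as a covariate. No segmentation probe passed an adjusted p of 0.05 in limma, 0 of 12 had an unadjusted p below 0.05, and the count of calls was 0 in every alternative setting run for this comparison. Over all tested probes 0.121% were called, and 5.22% had an unadjusted p below 0.05. The lowest unadjusted p was that of *Meox1*, 0.126, with females higher by 0.25 and an interval from -0.09 to 0.58. The largest difference was that of *Ripply2*, at 0.49 higher in females with an interval from -0.27 to 1.24, so a difference of over 2-fold between the sexes lies within its interval. For *Hes7* the interval ran from -0.20 to 0.15. The father difference did not pass the test of a difference between the sexes for any of the 12 probes (limma interaction term, 0 at an adjusted and 0 at an unadjusted p of 0.05), against 0.0639% of all tested probes called and 4.52% with an unadjusted p below 0.05. With 2 embryos for each father and sex, this comparison has little precision.

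For the 3 genes with the widest spread, the probes with the most similar deviations over the 8 embryos were sought among 19008 tested probes with a RefSeq name. Nearest to *Mesp2* were *Niban3*, *Tmem74* and *Ocel1*, with root mean square differences of 0.36, 0.36 and 0.42 on the log2 scale, beside the SD of 0.88 for *Mesp2* itself. Nearest to *Ripply2* were *Rps15a*, *Wdr63* and *Rfng*, a Fringe glycosyltransferase of the same family as *Lfng*, at 0.25, 0.30 and 0.30. The *Rfng* match was a dim probe, A_51_P230552, at a mean of -4.23 and well above background on 3 of 4 HET father arrays. The brighter *Rfng* probe, A_55_P2109429, at a mean of 3.03, had an SD of only 0.11 over the embryos, beside 0.51 for *Ripply2*. Nearest to *Uncx* were *Sall4*, *Sec24a* and *Teddm2*, at 0.07, 0.08 and 0.09, beside an SD of 0.36. With 8 values for each probe and so many candidates, close matches of this kind describe these embryos only.

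The wider pathways around the segmentation genes were compared with the same test, each gene by its brightest tested probe. Of the Notch pathway and its targets, 20 of 21 genes were tested, 1 was called higher and none lower, against 12.3% and 8.69% of all tested probes, with a median difference of -0.08 beside -0.02 over all probes. These shares apply to the counts of the lists that follow as well. The gene called was *Hes1*, a Notch target repressor of the same family as *Hes7*. Its signal was -1.17, -1.15, -0.93 and -0.996 in HOM father embryos. It was -1.19, -1.48, -1.42 and -1.31 in HET father embryos. The groups nearly touched, the difference was 0.29 with an adjusted p of 0.0492, and only 5 of 19 alternative settings kept the call. *Maml1*, the co-activator of Notch, differed by -0.13, with an adjusted p of 0.110. *Pofut1*, which adds the sugar that *Lfng* extends, differed by -0.02 with an adjusted p of 0.890. *Hes5* differed by -0.04, with an adjusted p of 0.893. Under scaling to the median no Notch gene was called higher and 9 of 20 were called lower, against 34.8% of all tested probes called lower.

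Of the 18 genes that tie the clock to Wnt and Fgf signalling, 2 were called higher and 7 lower, against 12.3% and 8.69% of all tested probes, with a median of -0.13. *Spry4*, an inhibitor of Fgf signalling, was at -1.44, -0.85, -1.15 and -1.04 in HOM father embryos. It was at -2.07, -2.40, -2.05 and -1.96 in HET father embryos. The groups were far apart, with a difference of 1.00 ± 0.14 (SE) and an adjusted p of 0.00293. *Axin2*, an inhibitor and target of Wnt signalling that oscillates in the presomitic mesoderm, read 0.64, 1.07, 0.79 and 0.81 in HOM father embryos. It read 0.13, -0.02, 0.27 and 0.25 in HET father embryos. These did not overlap either, and the difference was 0.67 ± 0.10 (SE) with an adjusted p of 0.00426, but a second *Axin2* probe, A_66_P134405, differed by 0.05 with an adjusted p of 0.849. Both calls were kept in all 19 alternative settings.

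The 7 lower genes included effectors of both pathways. *Bcl9l*, a co-factor of beta-catenin, differed by -0.58 with an adjusted p of 0.0407. *Hspg2*, a heparan sulphate proteoglycan that binds Fgf ligands, differed by -0.49 with an adjusted p of 0.0108, and its second probe by -0.12 with an adjusted p of 0.557. *Etv4*, a transcriptional target of Fgf signalling, differed by -0.48 with an adjusted p of 0.0458, and its second probe by -0.32 with an adjusted p of 0.220. The other 4, named after their values were seen, were *Snai1*, *Lef1*, *Etv5* and *Tnfrsf19*, with differences from -0.33 to -0.17, and the second *Tnfrsf19* probe had an adjusted p of 0.676. Of the 7, *Lef1* kept its call in all 19 alternative settings, *Hspg2* in 18, *Etv5* in 16, *Bcl9l* in 9, *Snai1* in 8, *Etv4* in 7 and *Tnfrsf19* in 6. The brightest genes without a call were *Dusp6* (-0.17, adjusted p = 0.144), *Nkd1* (-0.04, with an interval from -0.20 to 0.13) and *Sp5* (-0.07, adjusted p = 0.722). Without HOM father replicates 2 and 3, 2 genes of this list were called higher and 3 lower, against 8.80% and 3.02% of all tested probes.

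No gene of the 14 on the list of boundary and anterior presomitic genes was called in limma by its brightest probe, 2 had an unadjusted p below 0.05, and their median was -0.0048. A dimmer probe of *Fgfr1*, the Fgf receptor of the presomitic mesoderm, was higher by 0.64 with an adjusted p of 0.000672 (A_55_P1967015), whereas the brightest *Fgfr1* probe differed by -0.11 with an adjusted p of 0.275. Among them *Mesp1*, the neighbour and close relative of *Mesp2*, was at -3.58, -2.72, -3.80 and -3.83 in HOM father embryos. It was at -2.27, -2.85, -3.44 and -2.97 in HET father embryos. *Mesp1* was named after its values were seen. HOM father replicate 1, high for *Mesp2*, was not high for *Mesp1*, whereas replicate 2 was, and the *Mesp1* difference of -0.60 had an adjusted p of 0.220. In the alternative settings up to 1 gene of the list was called higher and up to 4 lower, the latter under scaling to the median.

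Of the genes of somite derivatives, 11 of 15 were tested and 1 was called lower, with a median of -0.03. *Scx*, the factor of the tendon lineage, differed by -0.33 with an adjusted p of 0.0209. *Tcf15*, named as a somite marker and needed for epithelial somites, differed by -0.16 with an adjusted p of 0.401. HOM father replicate 2 was the lowest embryo for this list, at a mean deviation of -0.32, while the other 7 embryos lay between -0.02 and 0.08. Without it 4 genes of the list were called higher and 1 lower, against 11.7% and 8.98% of all tested probes. None was called without HOM father replicate 1, HET father replicate 1 or HET father replicate 4, nor without HOM father replicates 2 and 3 together, where the median was 0.04. Of 15 tested tailbud and axial progenitor genes, 1 was called lower by its brightest probe and none higher, with a median of -0.17. It was *Fgf17*, a ligand of the posterior presomitic mesoderm, at -4.45, -5.17, -5.22 and -5.24 in HOM father embryos. It was at -4.24, -3.66, -4.31 and -3.83 in HET father embryos. The *Fgf17* probe was well above background on only 1 of 4 HOM father arrays and met the filter through the HET father arrays alone. Its fitted difference of -1.01 is thus set against signal near background, was -0.48 with normexp, and could not be fitted where all 8 arrays had to pass. A dimmer probe of *Sp8*, a zinc finger factor of the tailbud, was higher by 0.52 with an adjusted p of 0.000530 (A_55_P2083806), and its brightest probe was not called. *Cdx1*, *Cdx2* and *Wnt5b*, the brightest of the others, differed by -0.28, -0.21 and -0.16, with adjusted p of 0.476, 0.117 and 0.170. Under scaling to the median 8 tailbud genes were called lower, against 34.8% of all tested probes.

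**Figure D4:**
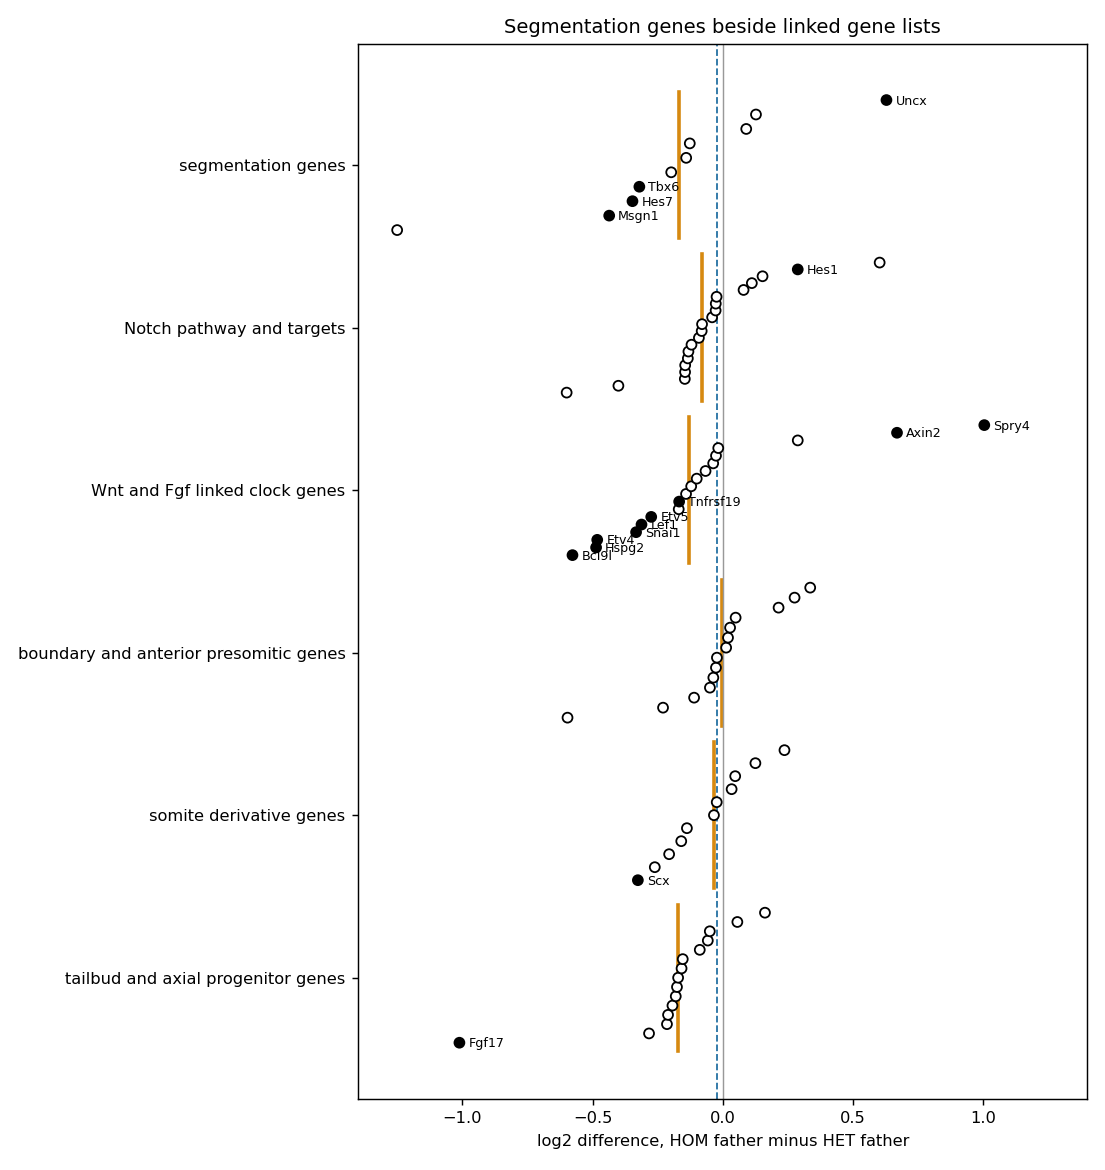
Log2 difference, HOM father minus HET father (x axis), of each tested gene in the segmentation set and in 5 lists of linked genes (rows; points are spread vertically within a row by size). Filled, named points passed an adjusted p of 0.05, orange bars are list medians, and the dashed line is the median of all tested probes, -0.02. The list medians run from -0.17 to -0.0048, and the largest rise is that of *Spry4*, at 1.00.

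A whole embryo can carry other tissues, so their markers are given beside these results. Of the lists for neural tissue, heart, erythroid cells, endothelium and yolk sac endoderm, 1 gene each was called lower for heart (*Myl7*, -0.25) and yolk sac endoderm (*Apoa1*, -0.41), and none was called higher. *Myl7* kept its call in 5 and *Apoa1* in 16 of 19 alternative settings. For neural tissue, endothelium and erythroid cells none was called by limma at its brightest probe, with 1, 1 and 3 genes at an unadjusted p below 0.05, while a dimmer probe of the neural gene *Sox1* was higher by 0.42 with an adjusted p of 0.0209. By sign, 5 of 6 erythroid genes were lower in HOM father embryos, and their summed signal, on a linear scale relative to the array's 75th percentile, ranged from 615 to 792 there and from 789 to 823 in HET father embryos. The same sum ranged from 161 to 204 and from 194 to 203 for the 8 heart genes, and from 461 to 576 and from 525 to 558 for the 8 yolk sac genes. Such sums follow the brightest probes. In the erythroid list these were the globins *Hbb-bh1*, *Hbb-y* and *Hba-x*, at mean log2 signals of 8.48, 7.67 and 7.41. *Epor*, *Alas2* and *Klf1*, at 3.27, 2.90 and 2.02, hardly count in it. Of 10 trophoblast and decidua genes, 8 were tested, 5 were on average higher in HOM father embryos and none was called or had an unadjusted p below 0.05. Their summed signal ranged from 19.7 to 46.2 in HOM father embryos and from 20.3 to 29.2 in HET father embryos. *Prl8a2*, a decidual prolactin, read 0.29, 4.14, 4.45 and 1.30 in HOM father embryos. It read 1.85, 1.88, -1.42 and -3.99 in HET father embryos. *Prl3d1*, a prolactin of trophoblast giant cells, read -1.05, 1.97, 1.12 and 0.39 in HOM father embryos. It read 0.44, 0.03, -2.39 and -3.16 in HET father embryos. By these probes both prolactins were highest in HOM father replicates 2 and 3 and lowest in HET father replicates 3 and 4. A second, dimmer *Prl3d1* probe, A_66_P115038, was also highest in HOM father replicates 2 and 3 (-2.18 and -3.08). Its lowest embryo was HOM father replicate 1 (-5.98), and it was well above background on 3 of 4 HOM father and 2 of 4 HET father arrays. HOM father replicate 2 was also the lowest embryo for heart and neural genes, with mean deviations of -0.38 and -0.28. Without HOM father replicates 2 and 3, chosen after the prolactin values were seen, 3 of 12 segmentation probes were called (*Dll3* A_55_P2045208, -0.45, *Tbx6* A_55_P2061273, -0.40, and *Uncx*, 0.54), against 11.8% of all tested probes. The difference of *Hes7* was then -0.35 as before, with an adjusted p of 0.0741, that of *Msgn1* was -0.41 with an adjusted p of 0.143, and the part of these tissues in the segmentation values was not tested otherwise.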

How the data were processed

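Expression was measured in 8 whole mouse embryos, each on 1 Agilent SurePrint G3 array, and groups came from the sample labels. The deposited scanner tables hold spot intensity on a linear scale, which the authors made with Feature Extraction 11.0.1.1, background subtraction included and normalisation between arrays not. The deposited spot flags are other values of 0 or 1 and served as filters. Spots flagged as outliers were dropped, the log2 processed signal minus the array's 75th percentile was taken, and spots of 1 probe were averaged. Probes entered the tests if well above background and over the 20th percentile on 4 or more arrays. Differences were fitted over all 29718 tested probes with limma 3.58.1 in R 4.3.3 (two-sided, Benjamini-Hochberg over all tested probes) and called at an adjusted p below 0.05. The fits were tested on simulated data. Probes were named through RefSeq accessions (assembly GRCm38.p6). The depth of a one-colour array is not a count, and 4 embryos per group limit the precision. P-values measure the spread between embryos, some of which share a sire. Neither the sires nor their pairing as brothers could be fitted.

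The segmentation genes and all lists were chosen with earlier results of these data known. All probes of the 10 genes were described. From each other list, up to 3 called genes in each direction by size and up to 3 others by mean signal were named. *Mesp1*, *Tcf15*, the prolactins and the dimmer probes of *Fgfr1*, *Sp8* and *Sox1* were named after their values were seen. Genes left out of the somite derivative and erythroid lists are not reported here. Alternatives were other scalings, normexp with an offset of 50 on median spot signals (the tables used here give no mean signal), other filters, the authors' value table, sex, replicate and identifier blocks, a trended robust variance, probes averaged by gene and leaving out embryos.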

Additional observations from a re-analysis of the deposited data

Results flagged for a closer look

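In *Mesp2*, HOM father replicate 1 stood apart from the other embryos of its group, at a normalised log2 signal of -3.25 while the other 3 lay between -4.87 and -4.64. Its gap to the nearest embryo was 0.856 of the range of the group, above Dixon's critical ratio for 4 samples. Of 26 groups of 4 examined in this way, chance gives about 1.3. The *Mesp2* spot was well above background in this embryo and in replicate 4 but not in replicates 2 and 3.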

How the results depend on the processing

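Of 12 segmentation probes, 5 were called in the comparison of fathers. The count was 9 under scaling to the median (12689 of all probes called and an index difference of -0.39), 2 without the filter on dim probes (3110 of 55644), 3 with the identifier prefix as a random block and 3 without HOM father replicates 2 and 3 (3510 of all probes), an alternative added after seeing the data. Leaving out 1 embryo gave 3 to 6 segmentation probes and 4157 to 6131 of all probes called, with 4157 without HET father replicate 3. The share of calls that were higher was 58.6%, and it was 18.4% under scaling to the median, 85.9% without the filter and 80.8% with the replicate block. The labels do not say that embryos with the same replicate number are pairs. Correlations of same-numbered embryos, in their deviations from the group mean, were 0.19, -0.09, -0.13 and 0.15. Such values cannot show whether the sires were brothers. A fit with the replicate block called 3 segmentation probes and 3487 probes in all. In that fit *Hes7*, *Tbx6* A_55_P2061273 and *Msgn1* lost their calls (adjusted p of 0.0695, 0.0901 and 0.0551) and *Mesp2* gained one (0.0270). *Mesp2* was also called after quantile normalisation (0.0485), scaling to the median (0.0209) and a trended robust variance (0.0430). The sign turned for *Ripply2* under scaling to the median (-0.10), without HOM father replicate 1 (-0.10) and without HET father replicate 4 (-0.20), with a range of -0.20 to 0.29 when 1 embryo was left out, and for *Meox1* under scaling to the median (-0.063). The index difference was -0.25 to -0.17 with 1 embryo left out. *Uncx* and *Dll3* A_55_P2045208 kept direction and call in every setting that tested them. The requirement of a signal well above background on all 8 arrays left *Mesp2* untested. Scaling to the median moved the difference of every segmentation probe by the same amount as the median of all tested probes, -0.19. Relative to that median, then at -0.21, *Ripply2* differed by 0.11 and *Meox1* by 0.15. The cause of the other changes was not tested. The *Mesp2* signal was well above background on 2 of 4 HOM father arrays.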
